A study of Mus musculus with 12 samples.

Results

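The zinc finger family described here comprised 66 genes named Zfp, Zbtb, Zkscan or Klf with a number, out of 3089 genes named on the arrays. A gene was a member if at least 1 array probe was annotated with its symbol and no other, and Zfp36 and its relatives, which bind RNA, were left out. The 66 genes were read by 93 probes and comprised 51 Zfp genes, 8 Zbtb genes, 6 Klf genes and Zkscan1. No Zscan gene was read by a probe of its own, and 122 further genes with such names were found only on probes that also list other genes, so they are not members. The rule for members uses gene names and the probe annotation, with no measured value.

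The study used 12 two-colour arrays to compare mouse RNA labelled as from aged and from young oocytes, with both RNAs bound to the same spots under different dyes. Pair 1 set aged RNA 1 against young RNA 1, pair 2 set aged RNA 2 against young RNA 5, and pair 3 set aged RNA 3 against young RNA 2. The 4 arrays of a pair (2 labellings, each in both dye orientations) made up 1 replicate. Strain, ages, oocyte stage and cells per RNA were not stated in the labels, and neither was whether the RNAs are from separate animals, so p-values cover only the spread between these RNAs, which may be technical.

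Zinc finger proteins of this class fold short stretches of protein around zinc ions, and a row of such fingers reads a stretch of DNA. Many Zfp proteins also carry a KRAB domain, which binds the corepressor Trim28 and through it the histone methyltransferase Setdb1 and heterochromatin proteins, and they are known for silencing transposable elements and for protecting imprinted genes from the oocyte into the early embryo. Zbtb proteins carry a BTB domain that pairs proteins and recruits corepressors, Zkscan1 carries a SCAN domain that pairs proteins, and Klf proteins have a conserved group of fingers at their end that binds GC-rich and CACCC sequences. The name alone does not make a transcription factor: Zfp598, for example, is a ubiquitin ligase that senses collided ribosomes, and Zfp451 is a ligase for the modifier Sumo.

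The 5 upstream sequences below are shown because they belong to the member that differed most clearly among the RNA pairs, Zfp61, and to members that led the comparison of aged with young oocytes and had a RefSeq sequence. Each is the run of 100 bases before the annotated start, 5′ to 3′ on the strand of the gene, from RefSeq on the build GRCm38.p6. Capitals mark a GC box (GGGCGG) or a CACCC box (CACCC), searched on both strands.
Zfp61, chr7:24299550-24299649, minus strand: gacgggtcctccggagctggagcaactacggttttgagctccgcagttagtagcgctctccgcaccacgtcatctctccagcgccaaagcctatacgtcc
Zbtb5, chr4:45012413-45012512, minus strand: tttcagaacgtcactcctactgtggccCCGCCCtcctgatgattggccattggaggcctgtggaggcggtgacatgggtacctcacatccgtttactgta
Zfp692, chr11:58306969-58307068, plus strand: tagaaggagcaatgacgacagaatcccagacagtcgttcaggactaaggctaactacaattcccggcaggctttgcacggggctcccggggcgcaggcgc
Zfp979, chr4:147642509-147642608, minus strand: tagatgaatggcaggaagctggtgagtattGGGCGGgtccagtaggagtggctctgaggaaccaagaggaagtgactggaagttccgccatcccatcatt
Zfp655, chr5:145231642-145231741, plus strand: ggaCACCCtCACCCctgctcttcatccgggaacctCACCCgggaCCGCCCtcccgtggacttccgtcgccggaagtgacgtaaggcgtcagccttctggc
The stretch of Zfp655, which lay below 0 in its mean ratio, holds 1 GC box and 3 CACCC boxes, and those of Zbtb5 and Zfp979, which lay on opposite sides of 0, hold 1 GC box each. Those of Zfp61 and Zfp692 hold neither sequence.

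Ratios are given as log2 of aged over young RNA, with each array centred on its median, so 0 is the middle of an array and not necessarily an equal amount of RNA. The direction is likely rather than settled: it rests on reading the deposited values as Cy5 over Cy3. No source used here states this, and with the opposite convention every sign and the dye called brighter would turn. Read as values already given as aged over young, 16 of 32 members described in detail change the sign of their mean. The arrays give ratios only, so no level of a gene in oocytes is known and the tissue could not be checked by the level of its markers. In RNA from whole samples, fewer cells of a type and less RNA per cell cannot be told apart. On single arrays the log2 ratios had an SD of 0.391 to 1.23 over all probes, widest on 1 array of pair 1 (labelling 2, aged RNA in Cy3). Pair 1 was the noisiest pair: the median SD of a member over the arrays of a pair was 0.60, 0.29 and 0.28 in pairs 1 to 3. Before centring, the log10 array medians ran from -0.316 to 0.047 in pair 1 and from -0.0026 to 0.0038 in the others. The cause was not tested, and the pairs were weighted equally.

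The family as a whole was spread evenly around 0, and no member passed the test of aged against young. Of the 66 genes, 37 had a mean ratio above 0 and 29 below, with a median of 0.03, quartiles of -0.10 and 0.16 and a range from -0.65 to 0.45. The median of the family was 0.02 in pair 1, 0.02 in pair 2 and 0.05 in pair 3 (SD of the 3 pair medians 0.017). Over all named genes the median was 0.00055, and over all 21370 rows (genes and probes without a single gene) it was 0.03. A mean ratio beyond 0.5 in either direction was found for 2 of the 66 members (3.03%) and for 6.93% of named genes, and a mean within 0.2 of 0 for 46 members (69.7%) and for 62.3% of named genes.

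Limma called 0 of the 66 members at an adjusted p under 0.05, where the background was 0% of the 21370 rows. The lowest adjusted p of a member was 0.632. An unadjusted p under 0.05 was found for 3 members (4.55%), Zbtb5 and Zfp692 above 0 and Zfp612 below, against 6.55% of all rows and 7.67% of named genes. A ratio of 1 sign in all 3 pairs was found for 20 members (30.3%), 13 above and 7 below 0, against 29.8% of all rows and 32.7% of named genes. These shares are near or below the background. The 95% confidence interval of a member's mean reached 0.355 to either side at the median. For a typical member a smaller difference would not reach even an unadjusted p under 0.05 with 3 pairs. The adjusted threshold asks for more: Nol9, the named gene with the smallest p, had a mean of 1.85 and an adjusted p of 0.124. Not passing therefore does not show that a member is unchanged, and its interval gives the range of differences that these pairs leave possible.

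**Figure D1:**
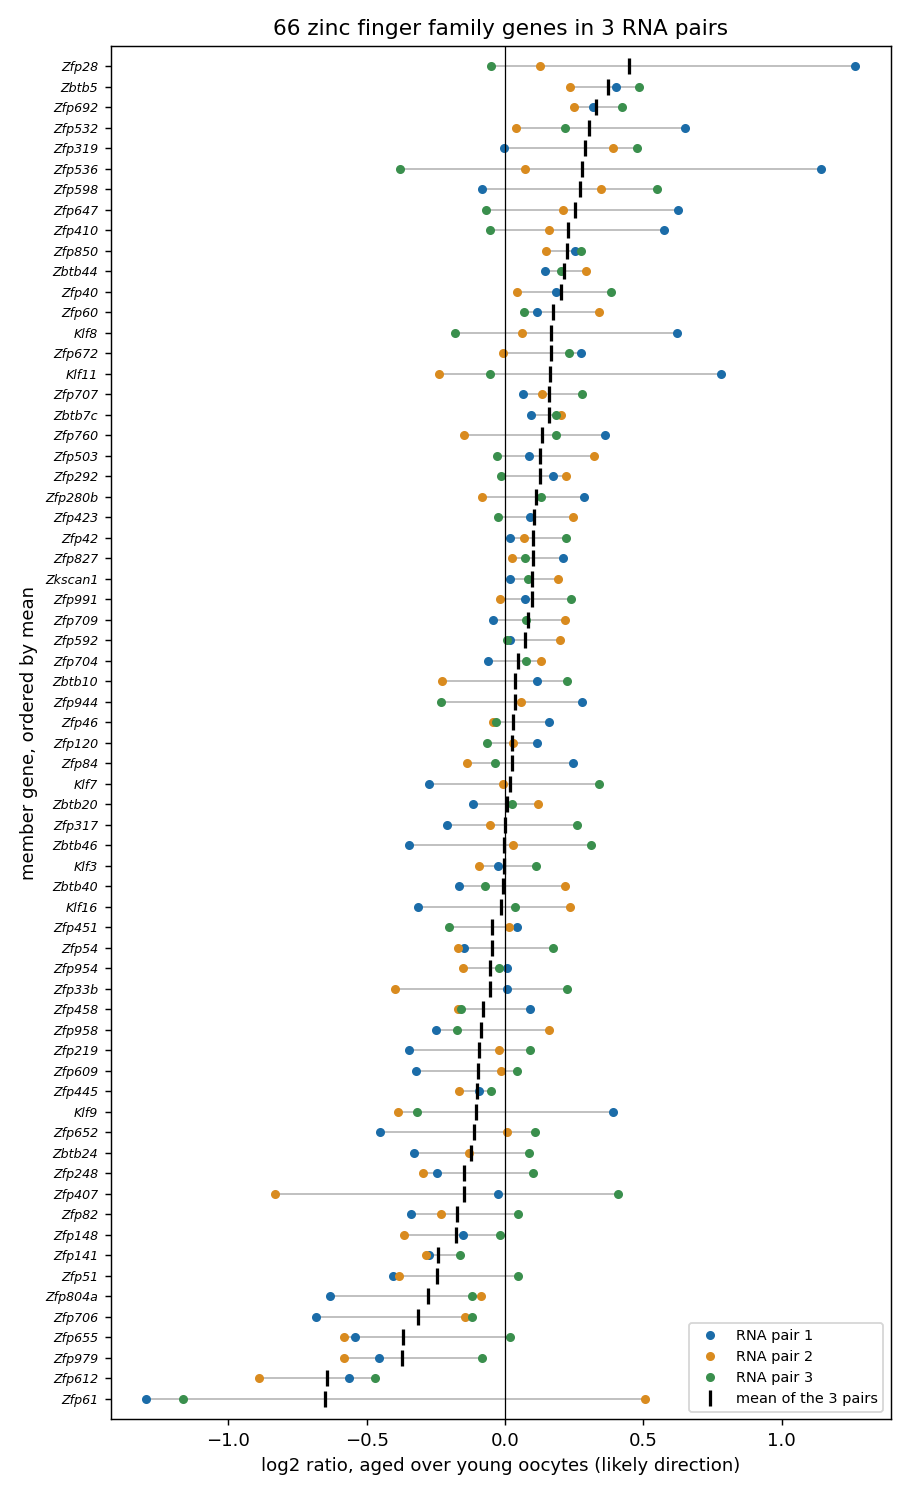
Log2 ratio of aged over young oocyte RNA (horizontal axis, likely direction) of the 66 members (vertical axis, ordered by mean), with 1 point for each RNA pair and a black bar for the mean of the 3 pairs. Most grey lines, which join the pairs of a gene, cross 0, and Zfp61 has pair 2 above 0 and pairs 1 and 3 below -1.

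**Figure D2:**
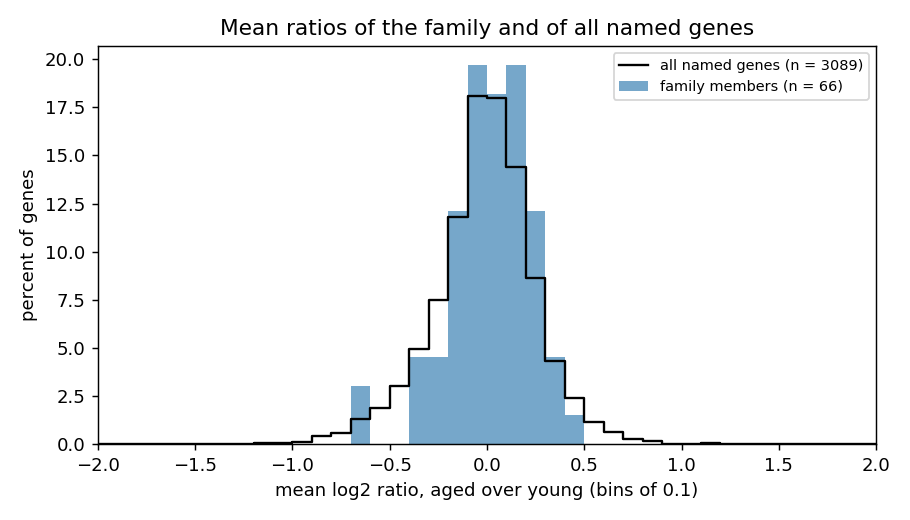
Percent of genes (vertical axis) by mean log2 ratio in bins of 0.1 (horizontal axis), for the 66 members (filled) and all 3089 named genes (line). Both are centred close to 0, and the members run from -0.65 to 0.45.

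The Klf genes, factors of proliferation and differentiation that bind GC-rich promoters, showed no common direction. Of the 6 measured, 3 had a mean above 0 and 3 below, with a median of 0.01, and none had 1 sign in all 3 pairs. Klf11, a repressor induced by TGF-beta, lay at 0.78 in pair 1, -0.24 in pair 2 and -0.05 in pair 3 (mean 0.16 ± 0.54, SD, n = 3, adjusted p = 0.837). Klf8, which represses through the corepressor CtBP, lay at 0.62, 0.06 and -0.18 in pairs 1 to 3 (mean 0.17 ± 0.41). Both means were carried by pair 1, without which they were -0.15 and -0.06.

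Klf9, a factor induced by steroid and thyroid hormones that works with the progesterone receptor, lay at 0.39 in pair 1, -0.38 in pair 2 and -0.32 in pair 3 (mean -0.10 ± 0.43). Its 2 probes stood at -0.40 and 0.19. Klf7, known from the growth of nerve cells, lay at -0.27, -0.01 and 0.34 (mean 0.02 ± 0.31), with 4 probes from -0.19 to 0.37. Klf3 and Klf16 had means closer to 0 than 0.02, and their pairs lay on both sides of 0. Within each of these genes the pairs differed from each other more than their mean differed from 0.

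Of the 8 Zbtb genes 5 had a mean above 0 and 3 below, with a median of 0.02, and 3 had 1 sign in all pairs, each above 0. Zbtb5, reported in human cells as a repressor of the cell cycle inhibitor p21, lay at 0.40, 0.23 and 0.48 in pairs 1 to 3 (mean 0.37 ± 0.13, SD, n = 3, adjusted p = 0.716). It was above 0 on 8 of the 11 arrays that measured it. The value of the remaining array, in pair 2, was at the limit of the deposited scale and was left out, and with it kept the mean was 0.91. A second probe, which lists Zbtb5 among several genes, stood at 0.44. The mean of Zbtb5 was 0.11 with aged RNA in Cy5 and 0.63 with aged RNA in Cy3. In pair 1 its arrays stood at -0.13 and -0.64 with aged RNA in Cy5 and at 0.73 and 1.65 in Cy3.

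Zbtb44 lay at 0.15, 0.29 and 0.20 (mean 0.21 ± 0.08) and Zbtb7c, a regulator of metabolic genes, at 0.09, 0.20 and 0.18 (mean 0.16 ± 0.06). The probe that lists Zbtb44 among several genes stood on the other side, at -0.59. Zbtb24, a gene mutated in a human immunodeficiency with loss of DNA methylation at centromeric repeats, lay at -0.33, -0.13 and 0.09 (mean -0.12 ± 0.21). Zbtb20, a repressor known from liver and brain, lay at -0.12, 0.12 and 0.02 (mean 0.01 ± 0.12), and its 4 probes ran from -0.15 to 0.12. None of these 4 genes passed, with adjusted p-values between 0.716 and 0.986.

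Zkscan1, the only measured member with a SCAN domain by name, lay at 0.02, 0.19 and 0.08 (mean 0.10 ± 0.09, adjusted p = 0.816). The pairs all lay above 0, but its own 2 probes stood at -0.02 and 0.22, and the 2 probes that list it with other genes at -0.86 and -0.20. The sign of its mean therefore depended on the probe.

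Among the 51 Zfp genes 28 had a mean above 0 and 23 below, with a median of 0.03, and 16 had 1 sign in all pairs, 9 above and 7 below. The Zfp gene with the smallest p was Zfp612, at -0.56 in pair 1, -0.89 in pair 2 and -0.47 in pair 3 (mean -0.64 ± 0.22, SD, n = 3, 95% confidence interval -1.01 to -0.28, adjusted p = 0.632). It was below 0 on 10 of 12 arrays, and on the 8 arrays of pairs 2 and 3 it ran from -1.11 to -0.24. In pair 1 the arrays stood at 0.06, 0.36, -2.55 and -0.13, and the lowest of these was the array of widest spread. Without that array the mean was -0.42. A probe that lists Zfp612 among several genes stood at 0.10.

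Next below 0 came Zfp979, at -0.45, -0.58 and -0.08 (mean -0.37 ± 0.26), and Zfp655, a finger protein known in human cells for a part in the cell cycle, at -0.54, -0.58 and 0.02 (mean -0.37 ± 0.34). The 3 probes of Zfp655 stood at -0.57, -0.36 and -0.18, so all lay on the same side. In both genes the low mean came mainly from 1 dye orientation. With aged RNA in Cy5 the means were -0.05 for Zfp979 and -0.04 for Zfp655, and with aged RNA in Cy3 they were -0.70 for each. Zfp141 lay at -0.27, -0.29 and -0.16 (mean -0.24 ± 0.07), with its 2 probes at -0.28 and -0.20. Probes and pairs of Zfp141 lay on 1 side of 0, and the test, which borrows part of its spread from all rows, gave an adjusted p = 0.716. Its single arrays lay on both sides of 0, with 9 of 12 below, and ran from -1.07 to 0.72 in pair 1. The mean was -0.08 with labelling 1 only and -0.09 without the array of widest spread.

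Zfp706 lay at -0.68, -0.15 and -0.12 (mean -0.32 ± 0.32), and Zfp804a, whose human counterpart is a risk gene for schizophrenia, at -0.63, -0.09 and -0.12 (mean -0.28 ± 0.31). In both genes pair 1 was the lowest, but its arrays did not agree. For Zfp706 they ran from -1.52 to 0.11, and for Zfp804a they stood at -1.55 and -1.73 with aged RNA in Cy3 and at 0.32 and 0.43 with aged RNA in Cy5. The mean of Zfp804a over all pairs was 0.10 with aged RNA in Cy5 and -0.66 in Cy3. Zfp148, a widely expressed factor that binds GC-rich DNA, lay at -0.15, -0.36 and -0.02 (mean -0.18 ± 0.17), but its 3 probes stood at -0.49, -0.24 and 0.20. Zfp445, a KRAB protein that helps to maintain imprints in mouse, lay at -0.09, -0.17 and -0.05 (mean -0.10 ± 0.06, adjusted p = 0.805), the smallest mean among the members below 0 in every pair.

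Above 0, Zfp692, whose human counterpart was described as a repressor controlled by the energy sensor AMPK, lay at 0.32, 0.25 and 0.42 (mean 0.33 ± 0.09, 95% confidence interval 0.02 to 0.64, adjusted p = 0.716). It was above 0 on 8 of 12 arrays, and 2 probes that list it among several genes stood at -0.37 and 0.32. Its mean was 0.19 with aged RNA in Cy5 and 0.47 with aged RNA in Cy3. In pairs 2 and 3 its arrays stood at 0.71, 0.54, 0.76 and 0.66 with aged RNA in Cy3. With aged RNA in Cy5 they stood at -0.15, -0.11, -0.0041 and 0.26. Zfp850 lay at 0.25, 0.15 and 0.27 (mean 0.22 ± 0.07). Zfp532, which in human cells forms a chromatin complex with the product of another zinc finger gene, lay at 0.65, 0.04 and 0.22 (mean 0.30 ± 0.31), with pair 1 above the others.

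Zfp40 lay at 0.18, 0.04 and 0.38 (mean 0.20 ± 0.17) and Zfp60 at 0.12, 0.34 and 0.07 (mean 0.17 ± 0.14). Zfp707 lay at 0.06, 0.14 and 0.28 (mean 0.16 ± 0.11), and Zfp827, whose human counterpart brings the NuRD complex to telomeres, at 0.21, 0.02 and 0.07 (mean 0.10 ± 0.10). Zfp42, known as Rex1 and a marker of embryonic stem cells, lay at 0.02, 0.07 and 0.22 (mean 0.10 ± 0.10), with probes at 0.01 and 0.19. Zfp292, a large factor of the developing brain, lay at 0.17, 0.22 and -0.02 (mean 0.13 ± 0.13). None of these genes passed, and the Zfp genes above 0 named here had adjusted p-values between 0.716 and 0.812.

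The ratios of the pairs were also set against the spread of the 4 arrays within a pair. That spread was taken as 1 value over the pairs, although arrays of pair 1 differed the most. This test covers technical error of repeat arrays only, so any difference between separate RNAs can pass it, and it says nothing about the spread expected between RNAs of 1 age. By the limma test of the pair on 12 arrays, 2 of the 66 members (3.03%) differed among the RNA pairs at an adjusted p under 0.05, against 5.99% of the 21219 rows tested and 5.05% of named genes. The 2 members were Zfp61 and Zfp407. They were singled out after their values were seen.

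Zfp61, a finger gene read by a single probe, lay at -1.48, -1.16, -0.92 and -1.63 on the arrays of pair 1. On those of pair 2 it lay at 0.78, 0.52, 0.38 and 0.35, and on those of pair 3 at -0.90, -1.27, -1.01 and -1.47. The 4 arrays of pair 2 were all above 0 and the 8 arrays of the other pairs all below -0.9, with no overlap. The pair means were -1.30, 0.51 and -1.16 (adjusted p = 0.00178 for the difference among pairs). The SD of arrays within pairs was 0.26, the 8th lowest of the members, while the SD between pairs was 1.01, and the mean of -0.65 did not pass the test against 0 (95% confidence interval -1.63 to 0.33, adjusted p = 0.716). The values of Zfp61 changed sign with the dyes as deposited in every pair, since the turned arrays of a pair agreed in sign in both orientations. Of 16 genes that mark oocytes 4 were measured, 1 with a mean above 0 and 3 below, and their mean was -0.66, 0.06 and -0.58 in pairs 1 to 3. Zp2, a protein of the zona pellucida, lay at -1.69, 0.56 and -2.41, and Bmp15, a growth factor of the oocyte, at -0.85, 0.06 and -0.14. Kit, the receptor of stem cell factor, lay at -0.95, -0.87 and -0.29, and Dppa3, a maternal factor of the early embryo, at 0.85, 0.47 and 0.53. Zp2 and Bmp15 thus had the signs of Zfp61 in the 3 pairs, and Kit and Dppa3 had 1 sign throughout. Their part in the values of Zfp61 was not tested.

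Zfp407, a large finger protein known in mouse from fat cells, where it acts with PPARgamma, lay at -0.02 in pair 1, -0.83 in pair 2 and 0.41 in pair 3 (mean -0.15 ± 0.63, adjusted p = 0.0350 for the difference among pairs). The 4 arrays of pair 2 ran from -1.26 to -0.54 and those of pair 3 from -0.03 to 0.92, without overlap. In pair 1 they ran from -0.96 to 1.01 and split by dye, with the arrays of aged RNA in Cy5 above 0 and those of aged RNA in Cy3 below. The call of Zfp407 ended without the array of widest spread (adjusted p = 0.0569) and with arrays scaled to 1 spread (adjusted p = 0.0946). Without that array Klf9 and Zfp612 passed the test of the pair instead (adjusted p = 0.0318 and 0.0452).

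The highest single pair values belonged to Zfp28, a KRAB gene, at 1.26, 0.12 and -0.05, and Zfp536, a repressor of neuronal differentiation, at 1.14, 0.07 and -0.38, also named after their values were seen. Both were high in pair 1 only. In pair 1 the arrays of Zfp28 ran from -0.09 to 2.17 and those of Zfp536 from -0.20 to 2.57, and in both genes the arrays with aged RNA in Cy5 were the higher ones. Neither gene passed the test of the pair (adjusted p = 0.0743 and 0.118).

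The part of the deposited ratio that keeps its sign when the dyes are swapped, which is a dye effect if the values are dye ratios, was of a size with the ratio of aged over young. It was called in 11 of the 66 members (16.7%), against 23.5% of all rows and 18.4% of named genes. It favoured Cy5 in 6 genes and Cy3 in 5, its median size over the members was 0.18 against 0.12 for the ratio of aged over young, and it was the larger of the 2 in 42 of 66. The share over all rows was not worked out for this last count. Zfp672, the immediate neighbour of Zfp692 in the RefSeq gene order, had the called value of largest size, at -0.69, brighter in Cy3. Its mean was -0.52 with aged RNA in Cy5 and 0.86 with aged RNA in Cy3, and it was named after its values were seen. Of the genes described above, Zfp707 (0.48), Zfp407 (0.47), Klf11 (0.34) and Zfp655 (0.33) were brighter in Cy5, and Zfp40 (-0.46) in Cy3.

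Members agreed between labellings and not between dye orientations. Over the 64 members with a value in both labellings, the means of the labellings had the same sign in 43 and correlated at r = 0.61. Over the 66 members the means of the dye orientations had the same sign in 23 and correlated at r = -0.21. The orientation means are in essence the ratio plus and minus the part that keeps its sign when the dyes are swapped. Their agreement thus restates the size of that part and is not a separate result. Pair by pair the correlation of members between orientations was -0.05, 0.0023 and -0.17, where all named genes had 0.12, 0.05 and -0.09. Between labellings it was 0.459, 0.761 and 0.468, where named genes had 0.646, 0.685 and 0.424. Between pairs the members correlated at 0.196 for pairs 1 and 2, 0.208 for pairs 1 and 3 and 0.0645 for pairs 2 and 3, and named genes at 0.188, 0.243 and 0.186. These correlations are descriptions over genes of the same arrays, which are not independent replicates, and the 2 labellings share their RNA. Zfp61 was among the exceptions, at -0.78 with aged RNA in Cy5 and -0.52 in Cy3.

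**Figure D3:**
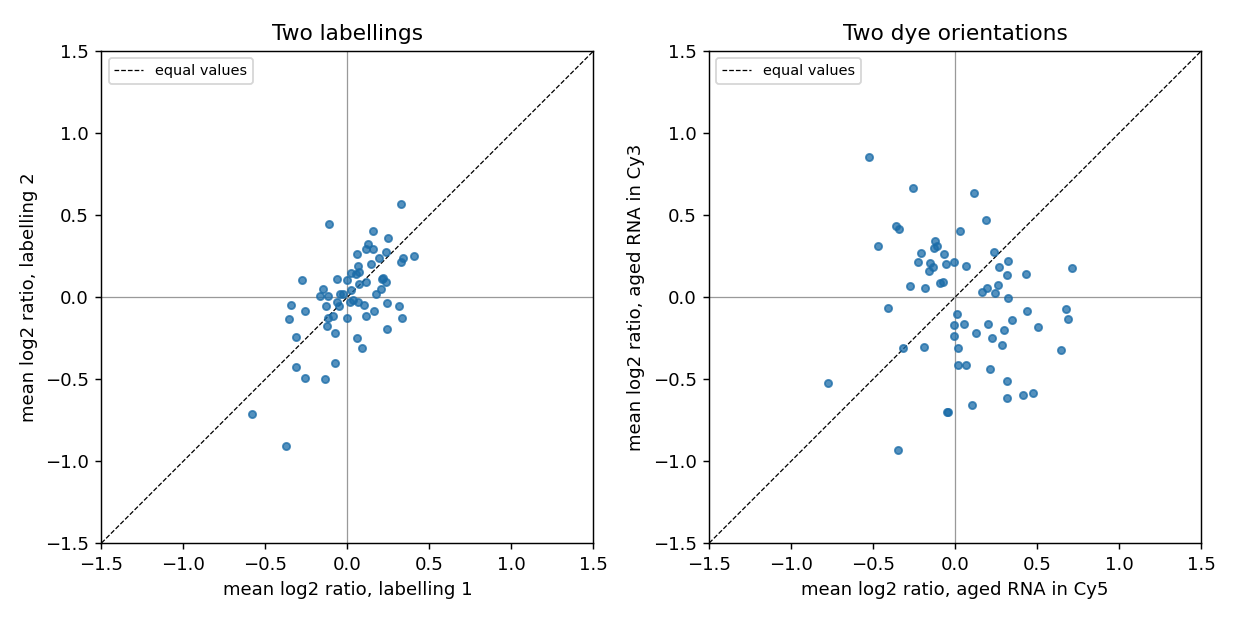
Mean log2 ratio of aged over young RNA of each member, labelling 2 against labelling 1 (left, 64 genes) and aged RNA in Cy3 against aged RNA in Cy5 (right, 66 genes), with the dashed line marking equal values. The points rise along the line between labellings (r = 0.61) and do not between dye orientations (r = -0.21).

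Different probes of a member often differed in sign. Of the 19 members with more than 1 probe, 9 (47.4%) had all probes on 1 side of 0, against 48.9% of the 867 such genes on the array, and the median distance between the lowest and highest probe was 0.24, against 0.26. Of 13 members with exactly 2 probes, 7 (53.8%) agreed in sign, against 57.1% of 646 genes. The widest spread was in Zfp148, from -0.49 to 0.20. Of 42 probes that list a member among several genes, 15 had the sign of that member's mean. The same share over all genes was not worked out, so this count does not describe the family in particular. The other 47 members rest on 1 probe each, among them Zfp612, Zbtb5, Zfp692, Zfp979 and Zfp61.

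**Figure D4:**
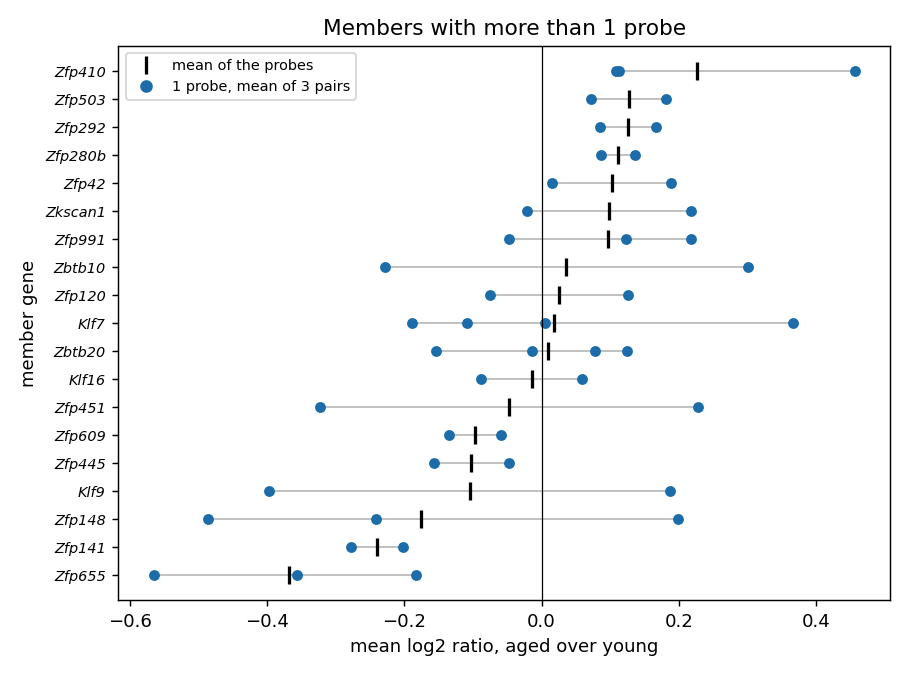
Mean log2 ratio of aged over young RNA (horizontal axis) of each probe (points) of the 19 members with more than 1 probe, with a black bar for the mean of the gene. The probes of Zfp655 and Zfp141 all lie below 0, while those of Zfp148, Klf9, Zfp451, Klf7 and Zbtb10 lie on both sides.

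In the RefSeq promoter table, 49 of the 66 members had a window of 250 bases before to 50 after the start. The GC box stood in 25 of them (51.0%), against 35.9% of 27025 genes, and the CACCC box in 27 (55.1%), against 56.7%. The windows of the members had a median GC content of 57.7%, against 52.7% of all genes. The median log2 ratio was 0.08 for the 25 members with a GC box and 0.0039 for the 24 without, and 0.08 for the 27 with a CACCC box and -0.05 for the 22 without. These differences were not tested, and a match of letters is not a binding site. In the gene order of RefSeq, Zbtb10 and Zfp704 (means 0.04 and 0.05), Zfp54 and Zfp51 (-0.05 and -0.25), and Zfp692 and Zfp672 (0.33 and 0.17) lie side by side. Each of these neighbours had the same sign of mean ratio, but the sign of Zfp672 turned with the dye orientation. The share of neighbours with the same sign over all genes was not worked out. Zfp991 and Zfp979, which lie 4 genes apart, had means of 0.10 and -0.37.

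Of the corepressors and chromatin partners of these proteins, 13 of 43 listed genes were measured, 6 above and 7 below 0, with a median of -0.02, and limma called 0 (2 at an unadjusted p under 0.05). Trim28, the corepressor of KRAB proteins, lay at -0.44, -0.04 and 0.43 (mean -0.02 ± 0.43). The modifier Sumo2 lay at -1.45, -0.33 and -0.86 (mean -0.88 ± 0.56), and the DNA methyltransferase Dnmt1 at -1.02, -0.21 and -0.67 (mean -0.63 ± 0.41), the 2 partners with the smallest p (adjusted p = 0.701 and 0.716). Zfp410, known in mouse for activating Chd4 with little other effect, lay at 0.57, 0.16 and -0.05 (mean 0.23 ± 0.32), and Chd4, a helicase of the NuRD complex, at -1.29, 0.19 and 0.25 (mean -0.28 ± 0.87). Zfp410 was picked for this pairing after its values were seen, and neither gene passed. In pair 1 the own probes of Zfp410 stood at 0.25, 0.04 and 1.43. Probes that list it among several genes had means from -0.72 to 0.28.

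Of 76 other zinc finger factors outside the name rule 16 were measured, 11 above and 5 below 0, with a median of 0.11 against 0.00055 for all named genes, and limma called 0 (1 at an unadjusted p under 0.05). The lowest p belonged to Ikzf1, a factor of blood cells, at 0.75, 0.30 and 0.39 (mean 0.48 ± 0.24, adjusted p = 0.716). Sp3, which binds the same GC boxes as Klf proteins, lay at -0.18, -0.25 and -0.35 (mean -0.26 ± 0.09). Of the marker lists for other cells, 4 of 14 granulosa and cumulus genes were measured, 1 above and 3 below 0, with pair means of -0.03, -0.24 and 0.12. Of 10 blood and immune genes 4 were measured, 3 above and 1 below 0, with pair means of 0.31, 0.13 and 0.09. Their part in the ratios of the family was not tested.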

How the data were processed

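The deposited values are log10 ratios, 1 per probe and array, for 22575 probes on 12 arrays. No source used here gives the scanner software, the background correction, the dye normalisation or the direction of the ratio. The log10 scale was read from the values, which are held within 2 of 0, and no source used here says at which step. The 1215 values on these limits and 513 values of exactly 0 (0.638% of all, and 5 of 1116 member values) were treated as missing. Values were converted to log2 and centred on the median of each array, and the sign was turned on arrays with aged RNA in Cy3. They were averaged within each orientation and then over both, giving 3 pair values. In the platform annotation 4262 probes list a single symbol, 6822 list several and 11491 list none. Probes of a gene were averaged, and other probes stayed as rows. The gene IDs of all 93 member probes were found in the RefSeq gene list with the same symbol.

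The pair values were tested against 0, two-sided, with the lmFit and eBayes functions of limma 3.58.1 in R 4.3.3 (with version 1.17.8 of the data.table package), and p-values were adjusted by Benjamini-Hochberg over 21370 rows. For the test of the pair and the test of the dye, limma was fitted to 21219 rows with a value on at least 10 of the arrays. The scripts were tested on simulated data. The number of arrays limits the precision.

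The members and all lists were chosen with earlier results of these data known. Named genes were up to 12 members on each side of 0 with 1 sign in the 3 pairs, by smallest p, up to 4 of each name group, and those of 25 chosen genes that were measured (Klf9, Zfp42, Zfp148, Zfp292 and Zbtb20). Genes named outside this rule are marked as such, except neighbours, partners and genes given only in counts or examples. A planned grouping by the number of finger motifs in the proteins was not run, as no protein sequences were used here.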

Additional observations from a re-analysis of the deposited data

Results flagged for a closer look

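Among the members, 2 genes had a ratio of aged over young RNA that differed among the 3 RNA pairs, by the limma test of the pair on 12 arrays. The test sets the pairs against repeat arrays of the same RNAs, so its p-values cover technical error only. For Zfp61 the adjusted p was 0.00178, with pair values of -1.30, 0.51 and -1.16. It passed in each of the 4 alternatives in which the test was repeated, with adjusted p between 8.59e-05 (noisiest 25% of rows left out) and 0.0144 (arrays scaled to 1 spread). For Zfp407 the adjusted p was 0.0350, with pair values of -0.02, -0.83 and 0.41, and in the alternatives it ran from 0.0148 to 0.0946. Zfp407 also had a dye effect of 0.47. The background for such a call was 5.99% of all rows.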

How the results depend on the processing

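No alternative called a member at an adjusted p under 0.05. Of all rows, 13 were called without centring, 42 without replicate 1 and 283 with the RNA pair as a random block. The other alternatives called 0 rows. Members at an unadjusted p under 0.05, 3 as reported, numbered 1 with labelling 1 only, with several-gene probes counted and without the array of widest spread, an alternative chosen after seeing the data. They numbered 5 with arrays scaled to 1 spread, 7 with aged RNA in Cy5 only, 7 in Cy3 only, 9 with the RNA pair as a random replicate block over 12 arrays, 11 with values read as already aged over young, and 1 to 4 without 1 replicate. The share of all rows moved with these counts, from 6.55% as reported to 6.05% with scaled arrays, 14.9% with Cy5 only, 16.8% with Cy3 only, 12.5% with the block (which called 283 rows, none of them members, at an adjusted p under 0.05) and 26.1% as already aged over young. The median of 0.03 moved to -0.088 without centring (all named genes -0.11), 0.055 with labelling 1 only, 0.057 with Cy5 only, 0.069 as already aged over young, 0.0039 with several-gene probes and 0.052 without that array. Members of 1 sign in all pairs, 20, became 13 without centring, 37 as already aged over young and 29 to 43 without 1 replicate, where only 2 pairs have to agree. Over all rows that share was 29.8% as reported, 26.0% without centring, 54.7% as already aged over young and 49.5% to 59.8% without 1 replicate. Members that differed among pairs, 2, became 1 with scaled arrays and 4 with the noisiest 25% of rows left out, when Klf11 and Zfp28 joined. The share of all rows that differed among pairs was not worked out for the alternatives, so these counts do not describe the family in particular. A fixed block for the replicate does not apply, since each ratio is already taken within its pair.

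Of 537 values of 32 described genes under alternatives, 478 kept their sign and 59, in 27 genes, changed it, and none passed. Read as already aged over young, the means that changed sign were Zbtb5 -0.26, Zfp692 -0.14, Zbtb44 -0.19, Zfp40 -0.46, Zfp827 -0.11, Zfp42 -0.21, Zfp612 0.29, Zfp979 0.32, Zfp804a 0.38, Zfp148 0.24, Zfp655 0.33, Zbtb24 0.12, Zfp292 -0.063, Zbtb20 -0.081, Zfp407 0.47 and Zfp672 -0.69. With aged RNA in Cy3 only they were Zfp532 -0.071, Zfp60 -0.087, Zbtb7c -0.0026, Zfp707 -0.33, Zfp445 0.069, Klf11 -0.18, Klf9 0.054, Klf7 -0.16 and Zfp536 -0.13, and in Cy5 only Zfp40 -0.26, Zfp827 -0.0077, Zfp42 -0.11, Zfp804a 0.10, Zfp148 0.060, Zbtb20 -0.072, Zfp407 0.32 and Zfp672 -0.52. Without centring they were Zfp827 -0.013, Zfp42 -0.012, Zkscan1 -0.017, Klf7 -0.096 and Zbtb20 -0.11. With several-gene probes counted they were Zbtb44 -0.19, Zkscan1 -0.22, Zfp445 0.035 and Zfp672 -0.24, and with the least variable probe per gene Zkscan1 -0.022, Klf9 0.19, Klf7 -0.11 and Zbtb20 -0.013. With labelling 2 only they were Zfp42 -0.13, Klf7 -0.030 and Zbtb20 -0.019, with labelling 1 only Klf8 -0.11, and without the array of widest spread Klf9 0.0067. Without 1 replicate the means ran from -0.060 to 0.34 for Klf8, -0.15 to 0.36 for Klf11, -0.35 to 0.035 for Klf9, -0.14 to 0.17 for Klf7, -0.046 to 0.071 for Zbtb20, -0.43 to 0.19 for Zfp407 and -0.15 to 0.61 for Zfp536. The causes were not tested.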
